A study of Mus musculus with 2 samples.

Results

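The promoters of long noncoding RNA (lncRNA) genes were examined in the accessible chromatin of ventral neural progenitors. A member was an autosomal interval of the consensus peak set that overlapped the transcription start site (TSS) of any transcript of a lincRNA, antisense or bidirectional promoter lncRNA gene and whose edges lay over 1 kb from every protein-coding TSS. This gave 1179 members of 119502 intervals, 116817 of which were autosomal. The members held the TSSs of 1183 lncRNA genes, of which 845 were lincRNA, 337 antisense and 1 bidirectional promoter lncRNA genes, and the more recent biotype name lncRNA was not in use in the annotation. In 33 members there was more than 1 lncRNA gene, and 25 genes had more than 1 member, with at most 3. In all, 2432 autosomal intervals lay on a TSS of such a gene, and the rule left out the 1217 of them that also held a protein-coding TSS and the 36 that lay within 1 kb of 1. Among the members, 52 also held the TSS of a gene of another biotype, most often a processed transcript (16 members) or a miRNA (9 members).

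The assay was ATAC-seq, in which the transposase Tn5 inserts adapters into open chromatin. There was 1 group, LIVE_ATAC, of 2 replicate libraries from live cells sorted for the fluorescent protein mKate2, made by the mouse embryonic stem cell line Olig2-mKate2, which reports Olig2, whose bHLH factor defines the motor neuron progenitor domain (pMN). Cells had been grown first with bFGF and LGK, then with bFGF, CHIR99021, SB-431542 and DMH1, and finally, up to day 5, in 100 nM retinoic acid and 100 nM SAG, which activates Sonic hedgehog (Shh) signalling, and 50000 cells entered each transposition. Since mKate2 marks any cell that made or recently made Olig2, the study describes young motor neurons and some cells with both OLIG2 and NKX2.2 among the sorted cells. In such a mixture, a low density from few cells with open chromatin and one from little opening in every cell cannot be told apart. There was no second condition, so nothing here is a response to a treatment. No label says whether the replicates came from separate differentiations, and the spread between them may be technical.

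The libraries held 31876165 and 31672240 counts in intervals, and the members took 1.512% and 1.507% of them. The values given below as density are counts divided by a DESeq2 size factor and by the length of the interval in kb. Promoters of genes of neural and ventral progenitors were accessible, with mean densities of 946 at Olig2, 862 at Sox2, 1452 at Nkx6-1 and 577 at Pax6. That of Nkx2-2, which marks the neighbouring p3 domain, had 711, so these values do not separate pMN from p3 cells. With 2 libraries no exact test between kinds of interval could reach a threshold. Differences between kinds are therefore set beside the SD over the libraries, which measures their repeatability, and intervals are not replicates.

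By way of background, lncRNAs are transcripts without a long open reading frame, made by RNA polymerase II from promoters that resemble those of messenger RNAs but tend to hold fewer CpG islands. A lincRNA gene lies between protein-coding genes, while an antisense gene overlaps one on the opposite strand. Many lie beside genes of developmental regulators, and some host miRNAs or snoRNAs that are cut out of their transcripts or introns. Open chromatin at a promoter is needed for initiation, but accessibility is not transcription, and no RNA was measured here.

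The following 300-base stretches, each from 250 bases before to 50 after the TSS nearest to the centre of the member, are shown because they are the most accessible members of 5 of the gene lists described below. They were read from the GRCm38 (mm10) reference in the direction of transcription. Capitals mark matches, on either strand, to the short motifs listed with the motif counts. Rmst, of the neural list (chr10:92162712-92163011, minus strand), is followed by Hoxaas3 of the Hox clusters (chr6:52174985-52175284, plus strand), the imprinted Nespas (chr2:174295387-174295686, minus strand), Trp53cor1 of the ubiquitous list (chr17:29079130-29079429, minus strand) and Platr26 of the pluripotency list (chr2:71719167-71719466, plus strand).
Rmst: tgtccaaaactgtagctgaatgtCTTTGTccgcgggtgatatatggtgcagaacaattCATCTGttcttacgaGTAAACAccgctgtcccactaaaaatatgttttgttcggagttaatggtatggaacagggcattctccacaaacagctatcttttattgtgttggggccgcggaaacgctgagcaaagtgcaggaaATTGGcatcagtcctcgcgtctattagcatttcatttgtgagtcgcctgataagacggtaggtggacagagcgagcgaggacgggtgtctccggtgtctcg
Hoxaas3: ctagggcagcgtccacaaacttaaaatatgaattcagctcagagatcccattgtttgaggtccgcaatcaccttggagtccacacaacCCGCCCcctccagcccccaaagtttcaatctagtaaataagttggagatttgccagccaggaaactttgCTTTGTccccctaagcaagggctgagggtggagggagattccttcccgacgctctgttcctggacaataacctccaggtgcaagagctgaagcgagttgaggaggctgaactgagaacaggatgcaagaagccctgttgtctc
Nespas: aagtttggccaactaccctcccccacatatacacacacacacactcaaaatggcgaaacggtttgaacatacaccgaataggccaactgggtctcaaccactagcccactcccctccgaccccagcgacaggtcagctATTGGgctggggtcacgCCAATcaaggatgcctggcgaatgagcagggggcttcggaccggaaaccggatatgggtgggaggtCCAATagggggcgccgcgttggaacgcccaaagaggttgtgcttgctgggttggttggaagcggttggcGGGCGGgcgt
Trp53cor1: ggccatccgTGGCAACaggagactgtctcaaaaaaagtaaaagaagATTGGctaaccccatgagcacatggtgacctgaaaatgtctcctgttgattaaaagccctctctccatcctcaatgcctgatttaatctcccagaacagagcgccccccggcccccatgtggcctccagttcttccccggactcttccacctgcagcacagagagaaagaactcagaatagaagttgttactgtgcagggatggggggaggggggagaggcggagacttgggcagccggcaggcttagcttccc
Platr26: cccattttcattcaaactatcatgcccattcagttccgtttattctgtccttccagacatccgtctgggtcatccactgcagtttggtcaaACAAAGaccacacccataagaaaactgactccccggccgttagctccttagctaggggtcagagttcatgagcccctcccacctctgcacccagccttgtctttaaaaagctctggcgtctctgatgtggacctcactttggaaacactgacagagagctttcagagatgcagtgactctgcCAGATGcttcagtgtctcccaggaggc

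Within these windows CpG dinucleotides numbered 17 at Rmst, 18 at Nespas, 6 at Hoxaas3, 6 at Trp53cor1 and 5 at Platr26. The ratio of observed to expected CpG was 1.02 at Rmst and 0.69 at Nespas, and between 0.27 and 0.30 at the other 3. Over the whole intervals the order differed, with 0.750 at Hoxaas3, 0.639 at Rmst, 0.556 at Nespas, 0.429 at Trp53cor1 and 0.178 at Platr26. The Hoxaas3 window lies partly outside its interval (chr6:52175149-52176255), and both of its marked motifs are outside. The Nespas window held 3 CCAAT boxes and a GC box, and the Rmst window matches to a FOX, a SOX and an E-box motif.

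The next stretches are the most accessible members of all, Gm38414 (chr8:36155760-36156059, plus strand) and Gm42418 (chr17:39846708-39847007, plus strand), and the most accessible members beside a listed regulator of the neural tube, 4632428C04Rik (chr16:30008417-30008716, plus strand), whose nearest protein-coding gene is Hes1, and Gm27197 (chr2:38348267-38348566, minus strand), next to Lhx2.
Gm38414: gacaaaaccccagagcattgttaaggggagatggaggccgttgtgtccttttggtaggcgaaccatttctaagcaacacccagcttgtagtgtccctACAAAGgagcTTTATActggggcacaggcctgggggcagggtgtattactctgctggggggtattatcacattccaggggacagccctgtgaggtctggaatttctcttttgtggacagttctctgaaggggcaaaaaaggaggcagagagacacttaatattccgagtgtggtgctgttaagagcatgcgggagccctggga
Gm42418: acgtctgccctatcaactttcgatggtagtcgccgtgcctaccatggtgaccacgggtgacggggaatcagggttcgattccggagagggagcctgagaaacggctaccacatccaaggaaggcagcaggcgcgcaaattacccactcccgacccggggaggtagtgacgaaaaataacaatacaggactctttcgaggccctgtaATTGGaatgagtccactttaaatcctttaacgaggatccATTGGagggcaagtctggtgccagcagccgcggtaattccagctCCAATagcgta
4632428C04Rik: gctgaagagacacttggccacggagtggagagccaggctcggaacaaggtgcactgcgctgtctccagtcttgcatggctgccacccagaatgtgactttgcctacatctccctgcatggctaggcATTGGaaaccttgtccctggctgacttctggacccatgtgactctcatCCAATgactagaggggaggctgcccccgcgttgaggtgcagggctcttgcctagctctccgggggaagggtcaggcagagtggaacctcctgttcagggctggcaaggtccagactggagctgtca
Gm27197: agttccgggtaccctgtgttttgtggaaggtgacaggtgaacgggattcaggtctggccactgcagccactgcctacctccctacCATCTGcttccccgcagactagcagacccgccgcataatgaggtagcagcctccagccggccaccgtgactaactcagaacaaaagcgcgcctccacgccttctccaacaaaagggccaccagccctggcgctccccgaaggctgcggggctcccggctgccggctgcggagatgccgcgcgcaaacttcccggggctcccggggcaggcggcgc

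The Gm38414 window held 4 CpG dinucleotides and that of 4632428C04Rik 6, against 19 at Gm42418 and 23 at Gm27197. The interval of Gm42418 overlapped an annotated ribosomal RNA gene and matched 4 other places in the genome, and the part of these copies in its counts was not tested.

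Across the members, lncRNA promoters were less accessible than protein-coding ones and more accessible than other distal intervals. The median density was 196 in replicate 1 and 199 in replicate 2 (mean 197 ± 2.24, SD, n = 2). At the 15727 intervals on a protein-coding TSS it was 768 and 744 (756 ± 17.5), and at the 96093 distal intervals on no TSS of either kind, over 1 kb from a protein-coding TSS, it was 122 and 125 (123 ± 2.10). The median of the members was thus 0.261 ± 0.00900 of that at protein-coding TSSs and 1.60 ± 0.00912 times that of the other distal intervals (SD of the ratio, n = 2). Both differences were many times the SD between libraries. Counts cover the whole interval, and the nearest lncRNA TSS lay within 200 bp of its centre in 683 members (57.9%). The median distance from TSS to centre was 156 bp. Accessibility at the TSS itself was thus not separated from that of the rest of the interval.

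The members were widely spread. The middle 50% of mean densities ran from 107 to 433, and the tenth and ninetieth percentiles were 64.99 and 917. The 163 members (13.8%) above the protein-coding median comprised 51 that were CpG-rich and 112 that were not, whereas 364 (30.9%) lay below the median of the other distal intervals. By density, 273 members were under 100, 328 between 100 and 200, 265 between 200 and 400, 164 between 400 and 800, 121 between 800 and 1600, and 28 higher. A mean normalised count over 100, the limit the study set for its comparisons, was passed by 767 members (65.1%, 95% Wilson interval 62.3 to 67.7%), against 89.3% of protein-coding TSS intervals and 30.4% of other distal intervals. These intervals of shares cover counting error only.

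**Figure D1:**
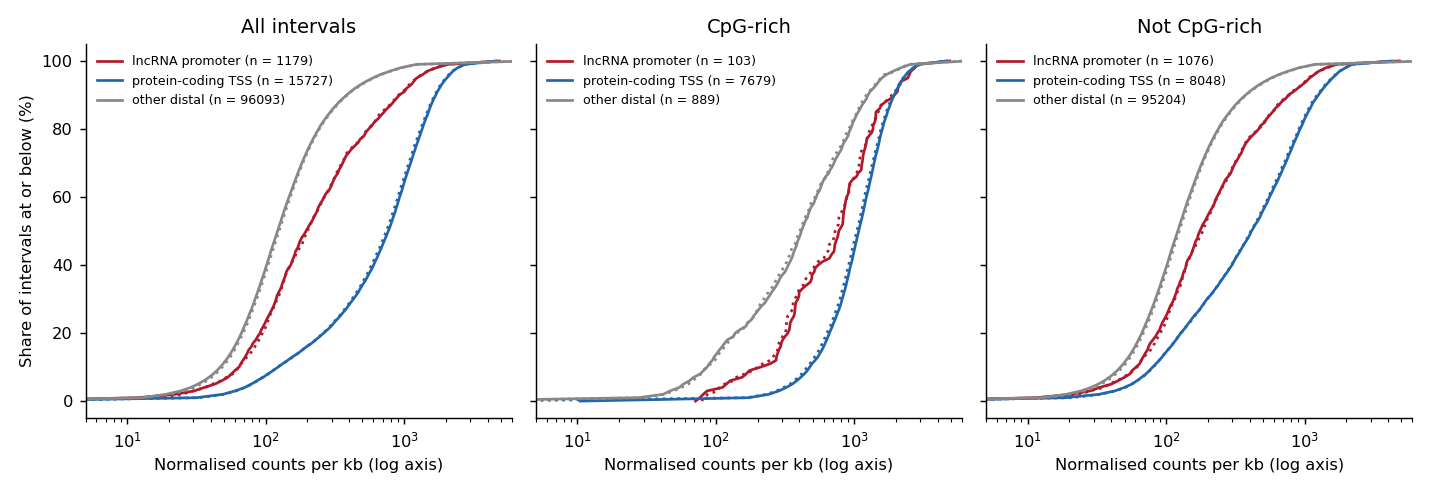
Cumulative share of intervals (vertical axis, %) at or below a given density in normalised counts per kb (horizontal log axis) for lncRNA promoters, protein-coding TSS intervals and other distal intervals, in all intervals, CpG-rich ones and the rest, with solid lines for replicate 1 and dotted lines for replicate 2. In each panel the median of lncRNA promoters (197 over all intervals) lies between those of the other distal intervals (123) and the protein-coding TSS intervals (756).

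Since the members differ in length from the other kinds (median 879 bp, against 1188 bp at protein-coding TSSs and 456 bp at other distal intervals), densities were also compared within bands of length. Below 500 bp the 244 members had a median of 119 ± 1.13, the protein-coding TSS intervals 119 ± 0.566 and the other distal intervals 112 ± 2.48, so that short members stood apart from neither kind by more than a few units. From 500 to 1000 bp the median was 214 ± 1.58 for 454 members, against 682 ± 9.87 and 140 ± 1.76. From 1000 to 2000 bp it was 294 ± 4.56 for 392 members, against 890 ± 17.9 and 155 ± 1.72, and above 2000 bp it was 299 ± 9.98 for 89 members, against 639 ± 15.8 and 169 ± 0.0437. In the 3 longer bands the members' median was thus 0.314, 0.330 and 0.467 of the protein-coding one and 1.53, 1.89 and 1.76 times the distal one.

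Base composition went with accessibility. An interval was called CpG-rich if its GC content was over 55% and its ratio of observed to expected CpG over 0.65, as in CpG islands. This held for 103 members (8.74%, 7.26 to 10.5%), for 48.8% of protein-coding TSS intervals and for 0.925% of other distal intervals. The CpG-rich members had a median density of 771 and 726 in the 2 libraries (749 ± 31.7), and the other 1076 members 175 and 184 (179 ± 6.29), a ratio of 4.18 ± 0.324. Among CpG-rich intervals alone, the median of the members was 0.708 ± 0.0146 of that at protein-coding TSSs, and among the others 0.437 ± 0.0189. Against other distal intervals these ratios were 1.83 ± 0.0485 and 1.46 ± 0.0266. Both gaps were smaller at low GC content. Under 45% GC, the median of 119 members was 0.792 of the protein-coding one and 0.997 times the distal one. From 45 to 50% GC, with 332 members, these ratios were 0.911 and 1.39. In the bands above 50% GC they lay between 0.411 and 0.430 and between 1.40 and 2.43. The share of CpG-rich members rose from 1.47% among members with a density under 100 to 28.9% between 800 and 1600 and 46.4% above 1600, where protein-coding TSS intervals reached 79.1%. Across the 1179 members, in which length and depth are shared between measures, the Spearman correlation of density in replicates 1 and 2 was 0.387 and 0.381 with the CpG ratio, 0.299 and 0.291 with GC content, 0.311 and 0.306 with length, -0.0509 and -0.0704 with the share of repeats, and -0.0918 and -0.0863 with the distance to a protein-coding TSS.

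Position relative to protein-coding genes separated members too. The median distance to the nearest protein-coding TSS was 30.5 kb. The 146 members from 1 to 5 kb away had a median density of 314 ± 4.02, the 317 from 5 to 20 kb 188 ± 1.195, the 459 from 20 to 100 kb 195 ± 1.23, and the 257 farther than 100 kb 178 ± 12.4. Of those nearest members 13.0% were CpG-rich, against 5.06% of those beyond 100 kb. The 53 CpG-rich members over 20 kb from any protein-coding TSS nevertheless had a median of 712 ± 15.4. The 273 members inside a protein-coding gene had a median of 164 ± 0.683 and the 906 outside 211 ± 0.287.

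At the limit of 1 kb, the members just inside were Gm38150 at 1032 bp from a protein-coding TSS (density 60.5), AC166172.6 at 1075 bp (175) and Gm26664 at 1104 bp (1520). Just outside it were A030001D20Rik at 977 bp (898), Bcas1os1 at 962 bp (280) and Far1os at 909 bp (439).

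The kinds of lncRNA gene differed as well. Members with lincRNA TSSs only (840) had a median of 212 in each library (212 ± 0.00999), and those with antisense TSSs only (334) had 166 and 169 (168 ± 2.45), a ratio of 0.789 ± 0.0115. Among CpG-rich members these were 824 ± 12.6 for 67 lincRNA and 455 ± 27.1 for 34 antisense intervals, and among the rest 194 ± 0.490 and 159 ± 2.70. Of the members with antisense TSSs only, 71.0% lay inside a protein-coding gene, against 4.29% of those with lincRNA TSSs only. The split by kind thus overlaps that by position, and the part of each was not tested. The 1 bidirectional member (Gm14424, Haglr), which lies on chromosome 2 at 6.846 kb from Hoxd3, had 1551 counts in each library (density 1556) and is named here after its values were seen.

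Members with several start sites were more accessible. The 260 with over 1 TSS had a median of 278 ± 2.05 and the 919 with 1 TSS 178 ± 6.99. The 28 members with lncRNA TSSs on both strands reached 416 and 429 (422 ± 9.20), 2.17 ± 0.0286 times the 194 ± 1.68 of those with TSSs on 1 strand. Lengths moved with this, at a median of 1159.5 bp on both strands and 864 bp on 1 strand. So did the CpG-rich share, at 17.9% on both strands and 8.51% on 1 strand, and at 16.2% with over 1 TSS and 6.64% with 1 TSS. The part of length and of CpG content in these differences was not tested.

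Genes that give rise to small RNAs had higher medians, and more of their members were CpG-rich (20.0% at miRNA and 30.0% at snoRNA hosts, against 8.74% of all). The 45 members at genes that contain a miRNA on the same strand had a median of 350 ± 10.6, and 40 of them (88.9%) had a mean count over 100. Their median length was 1140 bp, against 879 bp for all members, and the 9 that were CpG-rich had a median of 559.9 ± 50.6, below the 749 ± 31.7 of all CpG-rich members. The 10 members at snoRNA host genes had a median of 408 ± 17.8. The 60 members whose transcripts all had 1 exon had a median of 336 ± 0.900, against 192 ± 3.20 for those with 2 or more exons, and 21.7% of them were CpG-rich, against 8.04%. The lowest of the miRNA hosts was Mir142hg, the host of a blood cell miRNA, with 1 count in each library, which is under the 3 counts that a count of 0 allows.

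**Figure D2:**
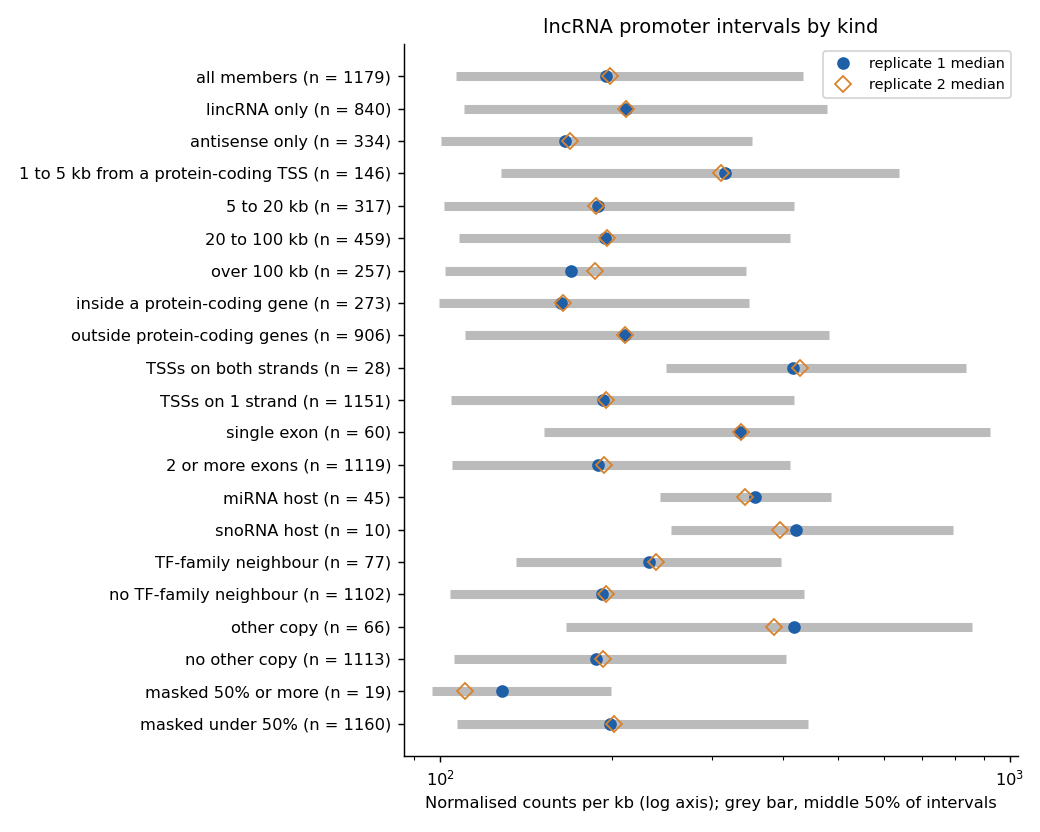
Median density in replicate 1 (filled circles) and replicate 2 (open diamonds), in normalised counts per kb on a log axis, for kinds of lncRNA promoter interval, with grey bars for the middle 50% of intervals. Medians range from 119 in members of mostly repeat sequence to 422 in members with TSSs on both strands, and every grey bar overlaps that of all members.

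Of the 6851 autosomal lncRNA genes with a TSS over 1 kb from protein-coding TSSs, 1183 (17.3%, 16.4 to 18.2%) had a member. By comparison, 14456 of 20807 autosomal protein-coding genes (69.5%, 68.8 to 70.1%) had an interval at a TSS. The share was 17.4% for lincRNA genes (845 of 4867) and 17.1% for antisense genes (337 of 1967), whose intervals overlapped. A gene without a member had no consensus interval at such a TSS, or only intervals on or within 1 kb of a protein-coding TSS. Where a gene had no interval at such a TSS, its counts are not known. The 17.3% is the general share to set beside the genes with a member in the lists below. Those lists also count genes whose TSSs all lie within 1 kb of a protein-coding TSS.

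The list of neural lncRNA genes, in which Lncpint was included with 3 members, had 14 members. Of 31 symbols, 18 were autosomal genes of the biotypes used, and the others, which were of another biotype (10) or not in the annotation (3), were not looked up. Of the 18, 9 had a member, 5 had an interval at or within 1 kb of a protein-coding TSS, and 4 (Dlx1as, Dlx6os1, Pax6os1 and Nkx2-2os) had no interval at a TSS. The median density of the 14 members was 337 ± 14.5, against 197 ± 2.24 for all members, and 11 of the 14 lay above the median of all members. The most accessible was the promoter of Rmst, a lncRNA of neural progenitors whose RNA interacts with SOX2, with 1833 and 1808 counts and densities of 1599 and 1576. It lay above 97.5% of members and above 88.0% of protein-coding TSS intervals, at 553 kb from the nearest protein-coding TSS. The hosts of the neuronal miRNA miR-124 had 656 and 616 at Mir124-2hg, and 337 and 330 at the first and 350 and 314 at the second interval of Mir124a-1hg.

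Hosts of miR-9, a miRNA of neural progenitors, had intervals of unequal density. Of the Mir9-3hg intervals, the CpG-rich one had densities of 429 and 393 and the other 119 and 136, and of those at C130071C03Rik 1 had 366 and 367 and the other 191 and 175. Lncpint, a lncRNA induced by p53, had 3 members, at 559 and 565, 344 and 315, and 117 and 140. Within each of these genes the gap between intervals was larger than the gap between libraries. Miat, a nuclear lncRNA of neurons, had densities of 407 and 359. Otx2os1, which lies 1.256 kb from a TSS of the forebrain and midbrain gene Otx2, had 338 and 324, and Vax2os, near the eye gene Vax2, 287 and 247.

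Hox cluster lncRNAs, which lie among the genes for position along the body axis, had 8 members. Of 20 symbols 10 could be looked up, and 7 of these had a member. Hotair and Hottip had no interval at a TSS, and Hotairm1 had one only at or within 1 kb of a protein-coding TSS. The median was 467 ± 12.03, and 7 of 8 lay above the median of all members. Hoxaas3 in the Hoxa cluster had 2167 and 2070 counts and densities of 1958 and 1869, above 98.6% of members. Its neighbour Gm15050 had 986 and 944. In the Hoxb cluster, densities were 682 and 610 at Hoxb3os, 333 and 280.5 at Hoxb5os, and 239 and 263 and 189 and 173 at the intervals of Gm53, so that both antisense genes lay above Gm53, which is beside Hoxb9. Hoxd3os1 had 618 and 582, and Halr1 315 and 336.

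At imprinted lncRNA genes, which are transcribed from 1 parental allele, 5 of the 6 genes that could be looked up from 11 symbols had a member, 7 intervals in all, and each of the 7 lay above the median of all members (list median 459 ± 11.7). Of the 6, H19 had no interval at a TSS. The antisense RNAs that silence neighbours on the paternal chromosome were among them, with densities of 1213 and 1115 at Nespas, 1196 and 1090 at Kcnq1ot1 and 494 and 472 at Airn. At Meg3, the maternally expressed lncRNA of the Dlk1-Dio3 region, the 3 intervals had 451 and 371, 358 and 343, and 238 and 249, and the first of them matched 1 other place in the genome. Mirg, a miRNA host farther along the same region, had 392 and 467. The counts do not separate alleles.

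Ubiquitous lncRNAs and snoRNA hosts had 10 members at 9 of 14 genes that could be looked up from 29 symbols, with a median of 469 ± 20.0 and 8 of 10 above the median of all members. Malat1, an abundant RNA of nuclear speckles, had densities of 892 and 786, and Neat1, the scaffold of paraspeckles, 667 and 614 in an interval that also holds the TSS of Frmd8os. Trp53cor1, a p53 target near Cdkn1a, had an interval with 880 and 816 and a second with 16 and 11 counts (61.8 and 42.5). Epb41l4aos had 830 and 767, Snhg20 491 and 451, Snhg6 476 and 459, and Snhg12 365 and 332. The interval of 2900097C17Rik, with 299 and 280, matched 10 other places in the genome, that of Snhg12 2 and that of Epb41l4aos 1. Pvt1, a lncRNA beside Myc, lay below the median of all members at 158 and 141. Of the 14, Mir17hg had no interval at a TSS and 4 (Tug1, Snhg9, Snhg10 and Snhg18) had one only at or within 1 kb of a protein-coding TSS.

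Pluripotency-associated lncRNAs, mostly the Platr genes of embryonic stem cells, had 5 members with a lower median than all members. Of 35 symbols, 22 could be looked up, and of these 15 had no interval at a TSS, 2 had one at or within 1 kb of a protein-coding TSS and 5 had a member. Among all lncRNA genes with a TSS over 1 kb from protein-coding TSSs, 17.3% had a member, so 5 of 22 was not a low share. The median of the 5 members was 129 ± 12.7, and 2 of 5 lay above the median of all members. Platr26 had densities of 319 and 319, Platr22 190.5 and 202, Platr1 108 and 138, Platr19 119.7 and 122, and Platr27 81.4 and 77.6. Platr22 was just above the median of the mean densities, and none of the 5 was CpG-rich.

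Genes of other lineages, listed as markers of cells that the sort should lack, had a member for 4 of the 10 that could be looked up from 21 symbols, with a median of 158 ± 10.2 and 1 of 4 above the median of all members. Bvht, a lncRNA of cardiac mesoderm, was the exception at 612 and 618. Dnm3os, a host of mesenchymal miRNAs, had 132 and 121. Chaer1, a heart lncRNA, had 8 and 13 counts (16.96 and 27.5). Carmn, Mhrt, Tbx3os1, Hnf4aos and Ifngas1 had no interval at a TSS, and Wt1os had one only at or within 1 kb of a protein-coding TSS. Beside the 4 of 10 with a member, the share among all lncRNA genes with a TSS over 1 kb from protein-coding TSSs was 17.3%.

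**Figure D3:**
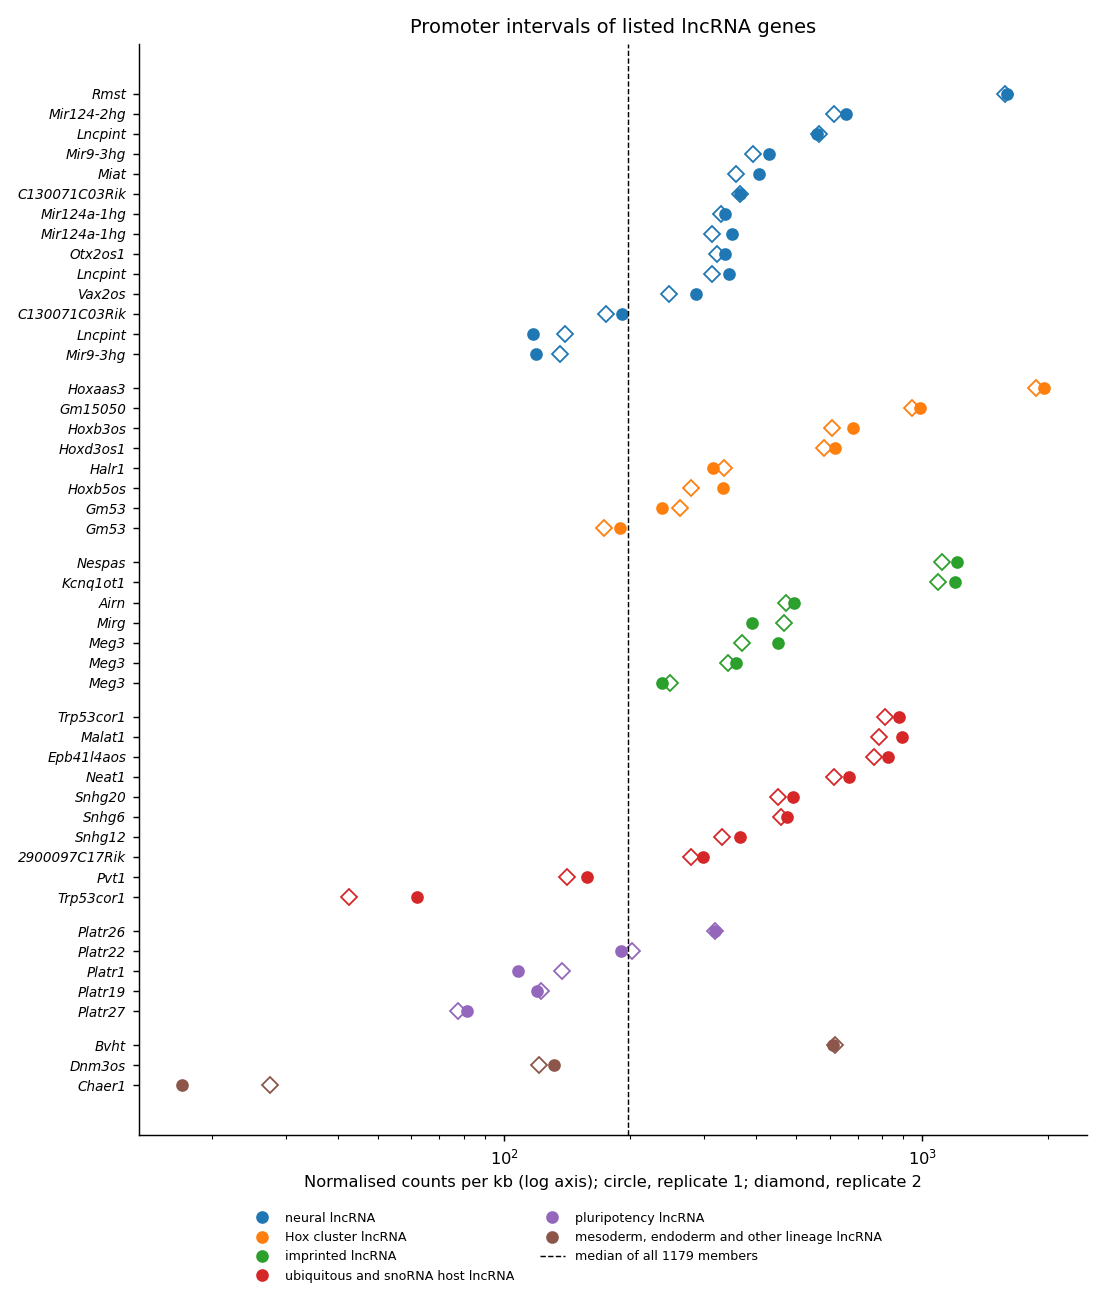
Density in replicate 1 (filled circles) and replicate 2 (open diamonds), in normalised counts per kb on a log axis, for each promoter interval of the listed lncRNA genes but 1, coloured by list, with the median of all 1179 members as a dashed line. Hoxaas3 and Rmst lie highest, all 7 imprinted intervals lie to the right of the line, and of the 5 pluripotency intervals only Platr26 lies clearly to its right.

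The members nearest to regulators of neural tube patterning ranged widely in density, and in distance up to 390 kb. A list of 69 protein-coding genes, mostly transcription factors of dorsoventral domains and of neurons, with Shh and its receptor gene Ptch1, was matched to the nearest protein-coding TSS of each member. It gave 26 members, nearest to 20 of the genes, with a median density of 175 in replicate 1 and 190 in replicate 2 (SD 11.1), against 196 and 199 for all members, and 13 of the 26 lay above the median of all members. Olig2 itself was the nearest gene of none.

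Among them, 4632428C04Rik, 54.9 kb from the Notch effector gene Hes1, was highest with densities of 1381 and 1349, while 9030404E10Rik, 24.7 kb from Hes1, had 132 and 134. Gm27197 next to the homeobox gene Lhx2 had 850 and 785, Gm26755 next to the neuronal factor gene Neurod1 771 and 718, and Gm38708 next to Gata2, a gene of V2b interneurons, 737 and 657. These last 3 lay between 2.10 and 2.72 kb from the neighbouring TSS and were CpG-rich. Gm16141 and Gm16140, antisense genes at the Hox cofactor gene Meis1, had 577 and 567 and 203 and 210. Members at floor plate genes had 489 and 491 at 9030622O22Rik, 4.14 kb from Foxa2, and 456 and 405 at 9530036O11Rik, 6.98 kb from Shh. This placed them above 77.2% and 74.9% of members.

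Near Sox2, Gm29135 (168 kb away) had densities of 296 and 292 and Gm42695 (78.2 kb) 155 and 171. Paupar, a lncRNA 6.70 kb from Pax6 whose RNA acts with PAX6, had 355 and 349 counts over a long interval and a density of 129 and 127, which placed it above 33.5% of members. At 194 kb from Irx3, a gene of the p2 domain, Gm36843 had 217 and 279. Gm36670, at 189 kb from Irx3, had 194 and 237, and Gm28516, at 222 kb, had 93.4 and 111. All of these were higher in replicate 2. The lowest were Gm34278 at 227 kb from Msx2 (58.3 and 43.7), Gm13553 at 10.8 kb from the motor neuron gene Lhx3 (29.4 and 28.1) and Gm47902 at 137 kb from Irx2, with 8 and 9 counts (24.0 and 26.9). Between these lay Gm20052 at 68.8 kb from the dorsal gene Msx1 (325 and 315), Gm30709 at 53.6 kb from Ptch1 (267 and 260) and 2610027F03Rik at 18.8 kb from En1 (144 and 134). The same held for Gm28387 at 224 kb from Pax3 (138 and 117), A330102I10Rik at 61.2 kb from Sox4 (109 and 132) and Gm47200 at 3.325 kb from the Shh effector gene Gli1 (108 and 106). It also held for 2610035D17Rik at 390 kb from Sox9 (84.8 and 93.2) and a second member nearest to Ptch1, 1700024I08Rik at 104 kb (61.0 and 70.7).

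**Figure D4:**
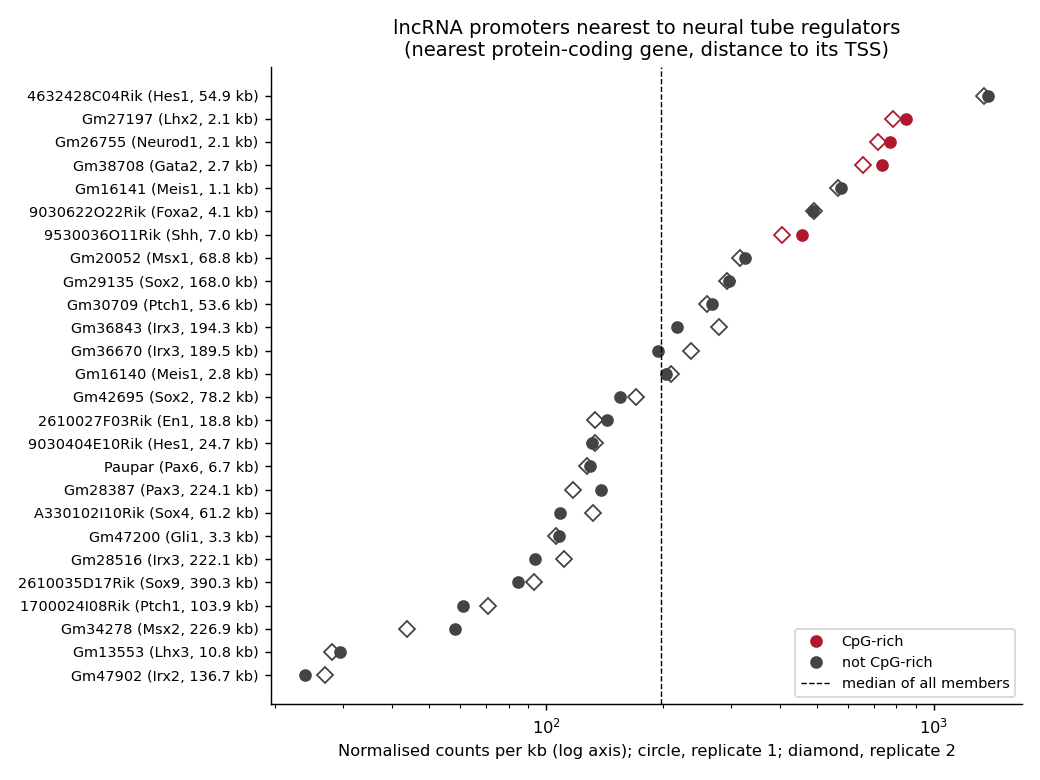
Density in replicate 1 (filled circles) and replicate 2 (open diamonds), in normalised counts per kb on a log axis, for the 26 members whose nearest protein-coding gene is a listed neural tube regulator, with that gene and its distance in kb in brackets, CpG-rich members in red and the median of all members as a dashed line. Values run from 24.0 at Gm47902 to 1381 at 4632428C04Rik, and the 4 CpG-rich members all lie to the right of the line.

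Over a broader set of 333 developmental transcription factor genes, recognised by the family name in the symbol, 77 members (6.53%, 5.26 to 8.09%) had a family gene as their nearest protein-coding gene, against 3.87% (3.75 to 3.99%) of other distal intervals and 2.36% of protein-coding TSS intervals. The families with most members were the group of Otx, Isl and related homeobox genes (11), Fox (10) and Hox (8), and none was next to an Olig, Dlx, Pou or Nfi gene. The 77 members had a median density of 236 ± 4.84, 1.22 ± 0.0104 times that of the others. In the 67 of them that were not CpG-rich the median was 222 ± 6.63, against 178 ± 5.93, and in the 10 CpG-rich ones it was 671 ± 53.7, against 795 ± 39.1, so the difference changed sign with base composition. Members next to the same gene share their neighbour and are not independent.

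A member's density went little with that of the neighbouring promoter. The nearest protein-coding gene had an interval at a TSS for 996 members (84.5%, 82.3 to 86.4%) and for 87.1% of other distal intervals. Over these 996 members, the Spearman correlation of the member's density with that of the neighbour's most accessible TSS interval was 0.0226 in replicate 1 and 0.0330 in replicate 2. The 183 members whose neighbour had no interval had a median of 236 ± 3.83, against 193 ± 3.50.

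The 10 most accessible members were mostly at genes known only by a code. Gm38414 on chromosome 8 had 3186 and 3325 counts (densities of 4764 and 4968) and Gm42418 on chromosome 17, the one over ribosomal RNA sequence, 4305 and 4149 counts (4883 and 4702). In mean density over the libraries both were above every protein-coding TSS interval. Gm5091, 119.68 kb from the Notch ligand gene Dll1, had densities of 3233 and 3463. Gm5091, Gm38414 and Gm10010 (densities of 2703 and 2789) did not meet both CpG limits, while the other 7 did. The remaining 6, with their densities, were Gm15287 (2783 and 2806), Gm6410 (2743 and 2694), D730045B01Rik (2561 and 2575), 1700096K18Rik (2459 and 2425), 1700041G16Rik (2492 and 2375) and Gm37494 (2181.5 and 2215.6). In 8 of the 10 the nearest protein-coding TSS was over 20 kb away, and of the 10 only Gm42418 had a match of 100 bp or more at 90% identity elsewhere in the chromosomes.

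Other copies were found for 66 members in all, and these had a median density of 402 ± 23.3, against 191 ± 3.78 for the 1113 without. The part of these copies in their density was not tested. In 19 members at least 50% of the bases were marked as repeats, with a median of 119 ± 12.6. On chromosome 8, where protein-coding TSS intervals had 1.40 ± 0.0187 times the median density of those on other autosomes, the 79 members had 0.905 ± 0.0289 times the median of other members.

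Among short motifs in the 300-base TSS windows, several of those of general promoters set members apart from protein-coding TSSs. Each was searched by its letters on both strands, and no motif contains another, although neighbouring matches can share end bases. Windows of members were set on the TSS, which lay within 200 bp of the interval centre in 57.9% of them. Those of other distal intervals were set on the centre, and the part of this placement in the shares was not tested. The GC box GGGCGG was in 270 of 1179 members (22.9%, 20.6 to 25.4%), in 62.1% of windows at protein-coding TSS intervals and in 8.17% of 300-base windows at the centres of other distal intervals. For the ETS core CCGGAAG these shares were 6.19%, 13.8% and 1.63%. The NRF1 core CGCATGCG had 0.679%, 2.84% and 0.128%, the CRE TGACGTCA 1.87%, 2.80% and 0.335%, and YY1 AAGATGGC 1.27%, 4.02% and 1.63%. The CCAAT box CCAAT hardly differed, at 33.4%, 33.8% and 32.6%. The TATA box TATAAA was in 10.9% of members, 5.65% of protein-coding windows and 13.4% of distal windows.

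Part of this followed CpG content. Within CpG-rich intervals the GC box was in 66.0% of members and 78.5% of protein-coding windows, and within the rest in 18.8% and 46.4%. Members with a GC box had a median density of 371 and 366 in the 2 libraries, and those without it 164 and 171. Among members that were not CpG-rich the medians were 318 with and 163 without the motif, and among CpG-rich members 764 and 745. With the ETS core the median was 311 ± 1.81, against 193 ± 3.03 without, and with the CRE, in 22 members, 352 ± 7.15 against 195 ± 1.50.

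Most motifs of developmental factors were more frequent in members than in protein-coding windows, the exceptions among those searched being the MYC and USF E-box and the GLI motif. The E-box CAGATG, of the kind bound by OLIG2 and neurogenic bHLH factors, was in 20.7% of members, 12.2% of protein-coding windows and 29.4% of distal windows, and the E-box CATATG in 2.63%, 1.44% and 5.78%. The SOX motif ACAAAG was in 26.9%, 13.7% and 34.3%, and the homeodomain core TAATTA in 6.45%, 2.21% and 7.96%. The E-box CAGCTG had 24.2%, 17.2% and 22.8%, the FOX motif TGTTTAC 3.82%, 2.27% and 4.80%, the octamer ATGCAAAT 2.29%, 1.31% and 2.29%, and the MYC and USF E-box CACGTG 7.55%, 8.91% and 4.07%. The RFX motif GTTGCCA was more frequent in members than in either other kind, at 8.06% against 3.99% and 4.80%. The GLI motif GACCACCCA was in 2 members (0.170%, against 0.242% and 0.504%). Median density was lower with than without the E-box CAGATG (145 ± 5.91 against 218 ± 2.01) and the SOX motif (176 ± 10.0 against 213 ± 0.229), but among CpG-rich members it was 810 with and 745 without the SOX motif. Over all members, the median was higher with than without the octamer (27 members, 252 ± 13.7 against 196 ± 1.76) and the E-box CATATG (31 members, 234 ± 24.2 against 197 ± 2.05). This was also so for the MYC and USF E-box (216 ± 3.12 against 196 ± 2.09) and the RFX motif (212 ± 6.21 against 196 ± 1.95). A letter match is a description of the window and does not show a bound factor.

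The libraries matched closely over the members. The squared Pearson correlation (R2) of log2(normalised count + 1) was 0.983 over the 1179 members, 0.992 over protein-coding TSS intervals and 0.944 over other distal intervals. Among the 767 members with a mean count over 100, 0 differed over 1.5-fold, and the SD of the log2 ratio was 0.13. The counts of every interval were compared between libraries by an exact two-sided binomial test. Adjusted by Benjamini-Hochberg over all 119502 intervals, it called 0 members at 0.01, and 0.0% of all intervals. At an unadjusted p under 0.05 it took 96 members (8.14%), against 8.39% of all intervals. These were 17 of the 103 CpG-rich members (16.5%) and 79 of the others (7.34%), while CpG-rich protein-coding TSS intervals had 16.6%. The CpG-rich members had a lower median in replicate 2 and the others a higher one, as given above.

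The 5 members with the largest ratios among those with a mean count over 100 were all higher in replicate 2. They were Gm19950 (83 and 119 counts), Gm13262 (85 and 121), Gm35696 (189 and 258), Gm33016 (105 and 143) and 9530082P21Rik (109 and 148), and their log2 ratios lay between 0.44 and 0.51. The adjusted p of the exact binomial test was between 0.26 and 0.48 for them. The 1 member without counts in a library was Gm2682, with 0 and 4 counts, where the 0 allows up to 3 counts. Gm47450 (1 and 1 count), Gm13274 (3 and 3), Mir142hg (1 and 1) and Gm31804 (6 and 3) were the other 4 of the 5 least accessible members.

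**Figure D5:**
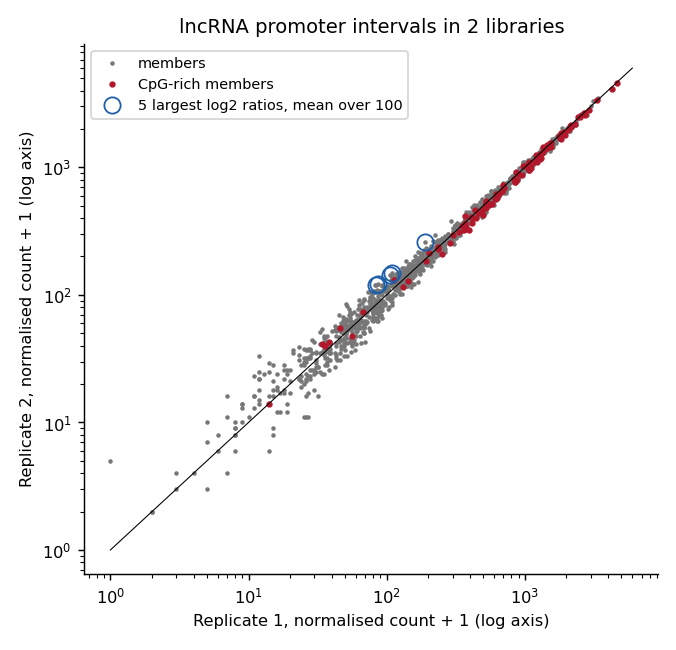
Normalised count + 1 of each of the 1179 members in replicate 1 (horizontal) and replicate 2 (vertical), both on log axes, with CpG-rich members in red, the 5 members with the largest log2 ratio among those with a mean over 100 circled and the line of equal counts. Points close on the line from about 100 counts upwards, where no member differed over 1.5-fold, and scatter below.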

How the data were processed

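ATAC-seq was measured in 2 libraries of 1 group. Per the file headers, the deposited values are raw counts of read pairs per consensus interval made by the authors with featureCounts 2.0.1, a pair counting in every interval it overlapped by a fraction of 0.2 or more, and another deposited column holds the interval length in bases. Alignment to mm10 and peak calling were done by the authors with the nf-core atacseq pipeline. The table held 3 further columns of counts that belong to no sample described here, and these were not used, although the interval set was built with them.

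Density is the count over the size factor of DESeq2 1.42.0 (R 4.3.3) and over the length in kb. TSSs and gene biotypes came from GENCODE M21 and bases from GRCm38.p6, the same build as mm10, and other copies were searched with BLAST+ 2.17.0 (90% identity over 100 bp). Intervals of each library were compared with a two-sided exact binomial test (scipy 1.17.1), adjusted over all 119502 intervals, which compares libraries and not conditions. The steps were tested on simulated data. Totals of 31876165 and 31672240 gave a median of 65 and 66 counts per interval. Wilson intervals (95%) and the limit of 3 counts for a 0 cover counting error only, and read pairs without molecular identifiers are not independent molecules.

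Members, gene lists and tests were chosen with earlier results of these data known. Genes were named if listed with a member, among the 10 highest densities, among the 5 largest ratios between replicates at a mean over 100, or nearest to a listed neural tube regulator, besides the members at the 1 kb limit, the 5 lowest, the 1 bidirectional member and the lowest miRNA host, which were named after their values were seen. Alternatives changed the normalisation (edgeR 4.0.16), the annotation, the distance, the CpG limits, the count limits, the scale and the libraries used. The values and sequence of 1 listed member of the other lineages are not reported here.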

Additional observations from a re-analysis of the deposited data

How the results depend on the processing

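Alternatives were run for the number, density, ratios, count and CpG shares, gene coverage, share next to transcription factor families, R2 and replicate calls of all members, and none of these changed direction. The gene lists, neighbours, other kinds of member and motifs were not rerun. Among the settings tried, apart from those added later, 40 moved a density or ratio by less than the spread between libraries, a share by less than its 95% Wilson interval, R2 by less than its SD over chromosomes, or a count by less than 1.5 times, and 23 moved it by more. With either library alone the median density of lncRNA promoters ranged from 195.8 to 199.0, its ratio to protein-coding TSSs from 0.255 to 0.268, its ratio to other distal intervals from 1.59 to 1.61, and the share with a mean count over 100 from 64.7 to 65.5%. With members over 5 kb from protein-coding TSSs these first 3 values were 188, 0.249 and 1.55. With only the start of each protein-coding gene they were 217, 0.250 and 1.74, with 18.6% of lncRNA genes covered and 12.6% of members CpG-rich. With all long noncoding biotypes they were 207, 0.273 and 1.68, with 14.4% covered, and with only the start of each lncRNA gene the distal ratio was 1.58 and 16.1% were covered. Counts per interval, not per kb, gave a median of 180.0 and ratios of 0.185 and 3.40, so that the gap to other distal intervals depended on the division by length. A mean of at least 10 counts gave a median of 204. A limit of 50 counts was passed by 81.4% and one of 200 by 47.3%. R2 on linear counts was 0.996. CpG-rich members were 13.8% at limits of 50% GC and 0.6, and 11.96% over the 300-base window. Alternatives chosen after seeing the data gave 191 and a distal ratio of 1.55 without members that match another place, and 190.5, 0.252 and 1.54 without members that hold a TSS of another biotype. The exact binomial test called 0 members also under TMM and total-count scaling and among intervals of at least 10 counts, where counts at an unadjusted p were not taken. No paired analysis was possible because both libraries belong to the same group. Depth limits most the members outside the 767 with a mean over 100 counts.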
